A study of Aspergillus nidulans with 6 samples.

Results

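In the RNA-Seq data of an Aspergillus nidulans celA deletion strain, 15 of the 1375 deposited genes are annotated as heat shock, redox or stress defence genes. They were taken by words in the deposited annotation: heat shock, chaperone, DnaJ, catalase, superoxide, peroxidase, peroxiredoxin, glutathione, thioredoxin, glutaredoxin, trehalose, stress and oxidative. Rows that also name a transporter, a transcription factor, a kinase, a permease, an MFS protein, a P450 or an oxygenase were to be dropped, and 0 rows were. The 15 genes comprise 4 of trehalose synthesis, 5 chaperones or heat shock proteins, 2 catalases, 1 superoxide dismutase, 2 glutathione S-transferases and 1 stress response protein.

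The libraries came from mycelium of the celAΔ strain and of the control strain SAA.111, with 3 biological replicates each, all grown at 37 °C in liquid medium with glucose as the carbon source. The labels and methods give 3 days of growth, though a longer time is named for these samples elsewhere in the study, so the age of the mycelium is uncertain. Nothing says whether the replicates were separate cultures, so p-values measure the spread between these libraries. Both strains carry the alleles veA1, biA1, riboB2, pyroA4 and wA3 and a deletion of argB made with trpC. In celAΔ the celA locus (ANIA_08444), which encodes a putative mixed linkage glucan synthase, is replaced by argB as the selectable marker, so the deletion and the regained argB cannot be told apart. The labels call the strain both a deletion and a downregulation of celA. The celAΔ strain is 1 stable transformant, so its 3 libraries are not of independent mutants. The comparison asks which genes respond to the loss of celA.

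Trehalose is a disaccharide that fungi store in conidia and make under heat, drought or oxidative stress. It is built in 2 steps, by a synthase that joins glucose units into trehalose 6-phosphate and by a phosphatase. Heat shock proteins refold or disaggregate damaged proteins, and DnaJ proteins deliver substrates to Hsp70. Superoxide dismutases turn superoxide into hydrogen peroxide, catalases degrade the peroxide, and glutathione S-transferases attach glutathione to electrophiles. In Aspergillus, separate catalase genes serve hyphae, conidia and peroxisomes.

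The mapped totals, derived from reads, gene size and RPKM (reads of a gene scaled to its size and to library depth), ranged from 4176645 to 5205011 in celAΔ and from 3300251 to 3706233 in the control. In a supplementary sheet the totals of celAΔ replicate 2 and control replicate 2 stand under each other's names, and those used here follow the columns of the deposited table, in which argB fits the labels. The 15 genes held 27783 to 38634 unique reads per library in celAΔ and 4332 to 15142 in the control. As a check of the labels, argB had 8150, 15329 and 11624 reads in celAΔ and 4, 4 and 2 in the control. The deleted celA still had 33, 38 and 36 reads in celAΔ, against 198, 197 and 111 in the control. In RPKM these were 3.54, 3.64 and 4.29 in celAΔ and 26.6, 29.7 and 15.3 in the control. Transcripts of celA were thus reduced and not absent. The study had checked the gene replacement by Southern blotting and diagnostic PCR. It held that the low celA level probably came from residual heterokaryons, which was not tested here. Control replicate 3 lay between the other controls and celAΔ for many genes. With all libraries the common biological coefficient of variation of the deposited genes was 46.8%, against 21.1% without control replicate 3. The test of each of the 15 genes is therefore given with and without this library. Control replicate 3 was singled out by its values in these same data, and only 2 control libraries remain without it. A larger change or a smaller standard error in those fits follows in part from that choice. Such fits show how far the results depend on control replicate 3 and are not firmer evidence of a difference between the strains. The 15 loci lie on 8 chromosomes of assembly ASM1142v1, and no 2 of them are closer than 99 loci.

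Unique reads of celAΔ and control were tested with the quasi-likelihood method of edgeR. A gene passed at a Benjamini-Hochberg adjusted p under 0.05 over all 1375 genes and an absolute log2 FC over 1. The deposited table holds only genes that the authors had selected on these same libraries by a p-value and a change of at least 2-fold (smallest ratio of means 2.001). Hence 93.6% of the deposited genes passed, 41.1% as higher and 52.5% as lower in celAΔ, and in 100% of them the 3 celAΔ libraries did not overlap with the 3 control libraries in RPKM. Of the 15 genes, 13 passed, 10 higher and 3 lower in celAΔ, and none overlapped between the strains, so these counts alone say nothing particular about stress genes. By mean RPKM, 12 of the 15 and 642 of the 1375 genes were higher in celAΔ. The median log2 FC of the 12 was 1.64, also with the 1 gene without control reads set at its lower bound, beside 1.89 over the 642. For the 3 lower genes it was -1.80, beside -1.71 over the 733 lower genes of the table. Reads of all 15 genes were unique to the gene (100% in each library).

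**Figure D1:**
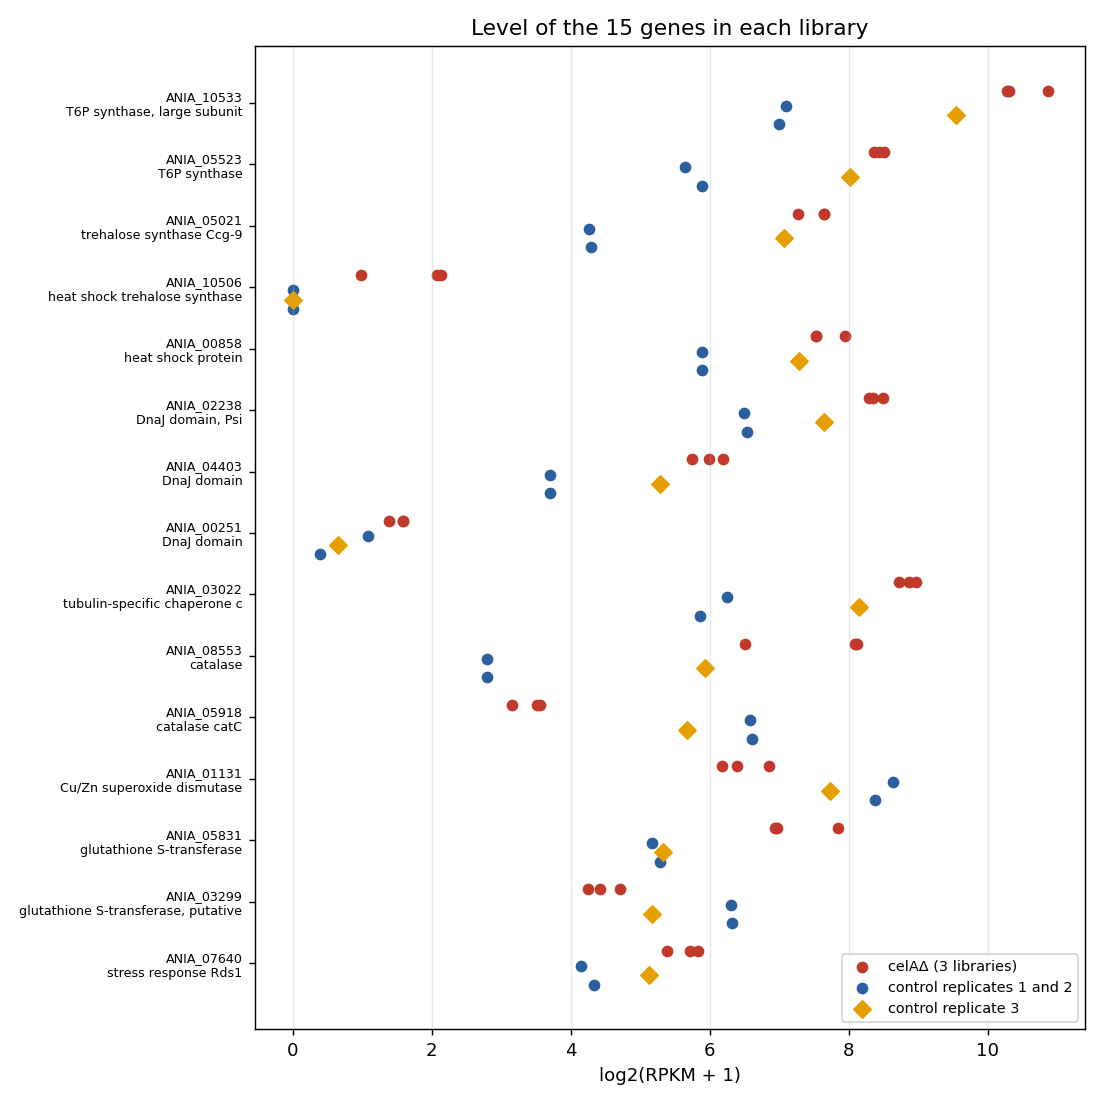
Level of each of the 15 genes as log2(RPKM + 1) on the horizontal axis, 1 row per gene, with 1 point per library (red celAΔ, blue control replicates 1 and 2, orange diamond control replicate 3; points are set apart vertically only to keep them visible). The celAΔ points lie right of all control points in 12 rows and left of them in 3 (ANIA_05918, ANIA_01131 and ANIA_03299), and the diamond lies between the blue and red points in all rows but ANIA_10506, ANIA_00251 and ANIA_05831, where it lies with the blue ones.

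Of the 4 trehalose synthesis genes, all were higher in celAΔ by mean RPKM, and 2 passed the test in edgeR with all libraries. ANIA_10533, the most abundant of the 15 genes in celAΔ, encodes the large subunit of trehalose 6-phosphate synthase; in Saccharomyces cerevisiae such large subunits regulate the synthase complex. It had 1863, 1244 and 1265 RPKM in celAΔ replicates 1, 2 and 3, against 136, 127 and 743 RPKM in control replicates 1, 2 and 3. The celAΔ libraries were all higher, and the third control was 5.64 times the mean of the other controls. With a mean of 1457 ± 351.5 RPKM (SD, n = 3) it ranked 24 among the deposited genes in celAΔ, against 335 ± 353 RPKM (SD, n = 3) and rank 78 in the control. The log2 FC was 2.12 (standard error, SE, 0.76, adjusted p = 0.0298 in edgeR), and 3.47 (SE 0.27) without control replicate 3. ANIA_10533 did not pass when any other library was left out, although its log2 FC stayed between 1.73 and 2.22.

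ANIA_05523, annotated as alpha,alpha-trehalose-phosphate synthase, makes trehalose 6-phosphate. Its levels were 329, 344 and 362 RPKM in celAΔ and 48.8, 58.0 and 257 RPKM in the control. The celAΔ libraries differed little among themselves (345 ± 16.2 RPKM), while the controls were spread as widely as their mean (121 ± 118 RPKM; SD, n = 3 each). With all libraries the difference did not pass in edgeR (log2 FC 1.51, SE 0.66, adjusted p = 0.0574 in edgeR). It did in limma with pseudocounts of 1 and 0.1, in DESeq2 and in edgeR with a replicate block. In these settings 89.8%, 98%, 69.7% and 91.5% of all deposited genes passed. In edgeR ANIA_05523 also passed without control replicate 3, with a log2 FC of 2.69 (SE 0.19), as did 96.1% of all deposited genes.

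ANIA_05021 is a putative trehalose synthase with the symbol ccg9 in RefSeq; in Neurospora crassa ccg-9 is a clock-controlled gene that encodes a trehalose synthase. It had 153, 200 and 199 RPKM in celAΔ, against 18.2, 18.6 and 134 RPKM in the control. Control replicate 3 was 7.27 times the mean of the other controls and came near the lowest celAΔ library. The log2 FC was 1.69 (SE 0.80, adjusted p = 0.0727 in edgeR) and did not pass. As for ANIA_05523, the same 6 libraries gave a call in limma with either pseudocount, in DESeq2 and with a replicate block. Of all deposited genes, 69.7% to 98% passed in these settings. Without control replicate 3 the log2 FC of ANIA_05021 in edgeR was 3.32 (SE 0.22) and passed. Over the 13 other settings tried, the adjusted p ranged from 3.93e-06 to 0.556 for ANIA_05021 and from 5.31e-06 to 0.439 for ANIA_05523 (edgeR, limma or DESeq2, Benjamini-Hochberg).

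ANIA_10506 is annotated as a putative heat shock trehalose synthase and was almost silent. Its reads numbered 9, 33 and 28 in celAΔ and 0, 0 and 0 in the control, or 0.981, 3.21 and 3.39 RPKM in celAΔ. It was the only one of the 4 trehalose genes for which control replicate 3 did not differ from the other controls. Set against 3 reads per control library, which a count of 0 allows, its mean level was at least 5.88-fold higher in celAΔ, a bound that covers counting error only. The difference passed the test (edgeR, Benjamini-Hochberg adjusted p = 0.00525), also without control replicate 3 and with each other library left out in turn.

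Summed over the 4 trehalose genes, the level was 2346, 1791 and 1829 RPKM in celAΔ and 203, 204 and 1134 RPKM in the control. The large subunit ANIA_10533 made up 79.4%, 69.5% and 69.2% of this sum in celAΔ and 67.0%, 62.4% and 65.5% in the control. Its ratio to the synthase ANIA_05523 was 5.66, 3.61 and 3.50 in celAΔ and 2.79, 2.20 and 2.89 in the control. The ratios did not overlap (exact permutation test on the log2 ratio, two-sided p = 0.1, the smallest that 3 libraries against 3 allow, so no such test can reach 0.05). Of 4 loci listed here as the trehalose pathway, only ANIA_05523 is in the deposited table. The phosphatase orlA and the trehalase treA are among those not analysed here.

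The 5 chaperone or heat shock genes all rose in celAΔ, with log2 FC between 1.18 and 1.74. ANIA_00858, a heat shock protein with a gene size of 2784 bases, had 246, 184 and 183 RPKM in celAΔ and 58.4, 58.0 and 154 RPKM in the control. The third control was close to the lower celAΔ libraries. Its log2 FC was 1.18 (SE 0.48, adjusted p = 0.0444 in edgeR), and 1.81 (SE 0.21) without control replicate 3. The call was fragile: ANIA_00858 did not pass when any other library was left out (log2 FC 0.94 to 1.25), nor with TMM factors.

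Among 3 genes with a DnaJ domain, the domain by which Hsp40 cochaperones stimulate Hsp70, ANIA_02238 (DnaJ domain protein Psi) was the most expressed. It had 361, 324 and 313 RPKM in celAΔ against 89.2, 91.7 and 200 RPKM in the control, with a log2 FC of 1.39 (SE 0.41, adjusted p = 0.0155 in edgeR) and of 1.88 (SE 0.18) without control replicate 3. ANIA_04403 had 62.5, 71.9 and 52.6 RPKM in celAΔ and 12.1, 12 and 37.9 RPKM in the control. Its log2 FC was 1.59 (SE 0.50, adjusted p = 0.0184 in edgeR), and 2.37 (SE 0.27) without control replicate 3. In both genes control replicates 1 and 2 were nearly equal, and the third control lay past the middle of the gap to celAΔ on the log2 scale.

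ANIA_00251, the third DnaJ gene, differed in its pattern. It had 18, 20 and 13 reads in celAΔ and 8, 2 and 4 in the control, that is 2.02, 2.00 and 1.62 RPKM in celAΔ and 1.12, 0.315 and 0.576 RPKM in the control. Here control replicate 3 lay between the other controls. The gene passed the threshold (log2 FC 1.45, SE 0.44, adjusted p = 0.0168 in edgeR), also without control replicate 3 (1.34), but not with limma on log2(RPKM + 1), a scale that compresses low levels (0.81). Calls in the DnaJ genes were lost without control replicate 2 in all 3 (log2 FC 1.20, 1.32 and 1.13 for ANIA_02238, ANIA_04403 and ANIA_00251). ANIA_02238 was also lost without control replicate 1 (1.19) and ANIA_04403 without celAΔ replicate 2 (1.48).

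ANIA_03022 encodes a putative tubulin-specific chaperone c, a cofactor for the assembly of tubulin dimers and not of the heat shock machinery. It showed the largest change of the chaperone genes, with 502, 468 and 421 RPKM in celAΔ and 74.9, 56.9 and 284 RPKM in the control. The celAΔ libraries lay together and the third control between them and the rest. The log2 FC was 1.74 (SE 0.63, adjusted p = 0.0309 in edgeR). It was 2.81 (SE 0.21) without control replicate 3, and between 1.37 and 1.81, without passing, when any other library was left out.

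Of 5 loci listed here as general chaperones, the endoplasmic reticulum members bipA and pdiA are in the table, and both were lower in celAΔ. ANIA_02062, similar to bipA, the Hsp70 of the endoplasmic reticulum, had 276, 204 and 221 RPKM in celAΔ against 724, 780 and 546 RPKM in the control (log2 FC -1.55, SE 0.35, adjusted p = 0.0066 in edgeR), and the log2 FC was -1.69 without control replicate 3. For the protein disulfide isomerase ANIA_07436, which forms disulfide bonds in secreted proteins, the levels were 233, 164 and 147 RPKM in celAΔ and 444, 458 and 304 RPKM in the control, with a log2 FC of -1.15 (SE 0.36, adjusted p = 0.0181 in edgeR), and of -1.32 without control replicate 3. Both endoplasmic reticulum genes thus fell while the DnaJ genes and the heat shock protein ANIA_00858 rose. A difference by cell compartment was not tested. With the size factors of DESeq2, the log2 FC of ANIA_07436 was -0.45 and it did not pass, nor did ANIA_02062 at -0.85. ANIA_07436 was also lost without control replicate 1 or 2 or celAΔ replicate 2 or 3. The loci of hsp70, hsp90 and hsp60 were not analysed here.

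**Figure D2:**
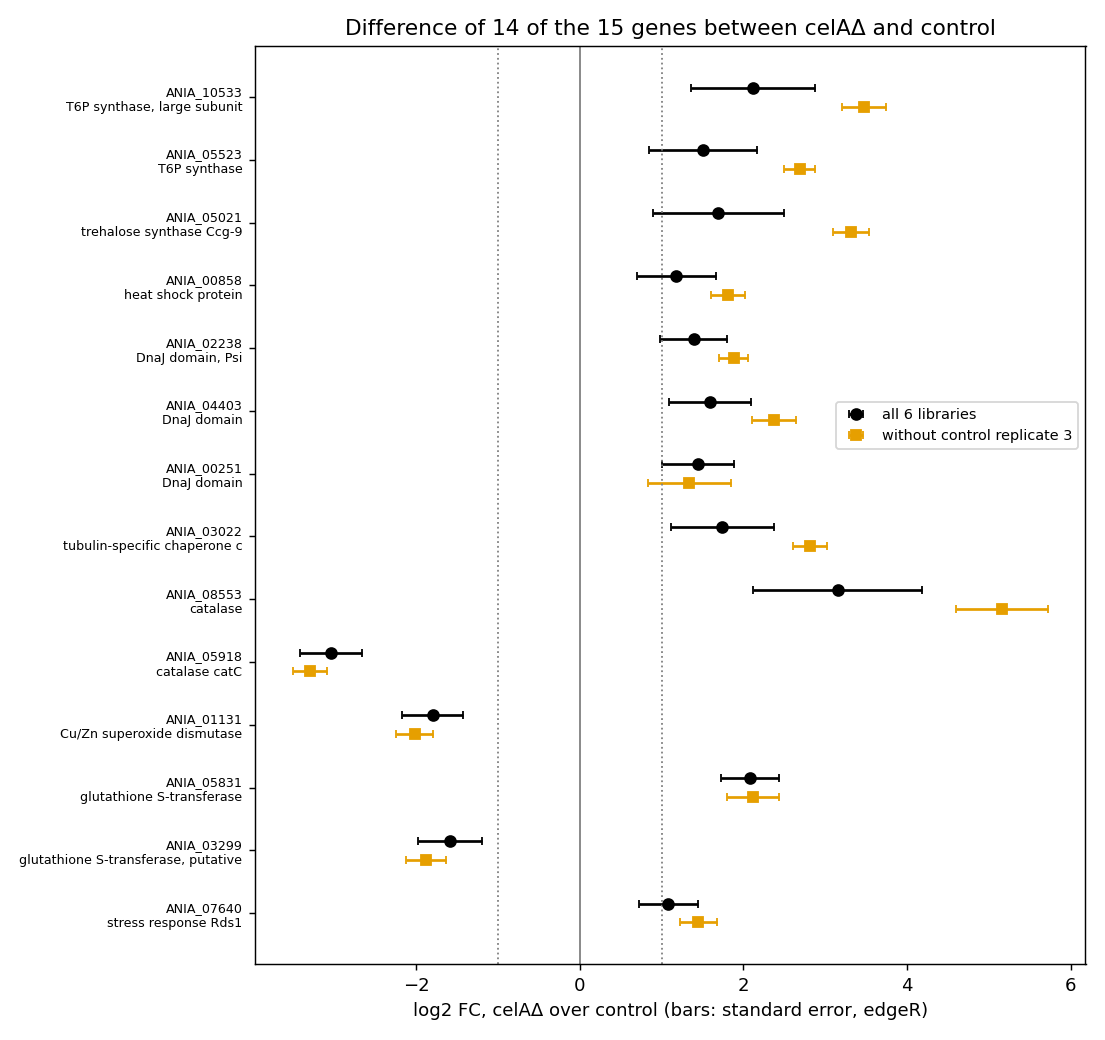
Difference between celAΔ and control as log2 FC from edgeR, with the standard error as bar, for 14 of the 15 genes; black circles use all 6 libraries and orange squares leave out control replicate 3, and the dotted lines mark a log2 FC of -1 and 1. ANIA_10506 is left out because its control libraries hold 0 reads. Without that library the SE is smaller for most genes (0.27 against 0.76 with all libraries for ANIA_10533), and for the 3 genes on the left the values move little (-3.30 against -3.04 with all libraries for ANIA_05918).

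The 2 catalase genes moved in opposite directions. ANIA_08553, annotated as a catalase, had 89.9, 273 and 276 RPKM in celAΔ, against 5.95, 5.92 and 60.1 RPKM in the control. The first celAΔ library was at 0.328 times the mean of the other celAΔ libraries, and the third control was 10.1 times the mean of the other controls. The log2 FC was 3.15 (SE 1.03, adjusted p = 0.0212 in edgeR), and 5.16 (SE 0.56) without control replicate 3. The gene was lost without celAΔ replicate 2, celAΔ replicate 3 or control replicate 2 (log2 FC 2.93, 2.92 and 2.69).

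ANIA_05918, catalase catC, was lower in celAΔ, with 10.4, 7.91 and 10.8 RPKM, against 95.0, 96.2 and 49.9 RPKM in the control. This was the largest fall among the 15 genes (log2 FC -3.04, SE 0.38, adjusted p = 0.00138 in edgeR), and control mean levels were 8.26 times those of celAΔ. ANIA_05918 passed in all 13 other settings, with log2 FC from -3.30 (without control replicate 3) to -2.90 across the leave-one-out fits.

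The more abundant catalase was ANIA_08553 in celAΔ and ANIA_05918 in control replicates 1 and 2. The ratio of ANIA_08553 to ANIA_05918 was 8.61, 34.5 and 25.5 in celAΔ and 0.0627, 0.0615 and 1.21 in the control. Since every deposited gene separates the strains, a gene above over a gene below must do so too, and the ratio was not tested. The sum of both catalases was 100.4, 280.5 and 286.6 RPKM in celAΔ and 100.9, 102.1 and 110 RPKM in the control, and these sums overlapped (exact permutation test, two-sided p = 0.4). In the first celAΔ library the summed level was that of the control although its composition was not. The other catalase loci catA and cat1 were not analysed here.

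ANIA_01131, a putative cytosolic Cu/Zn superoxide dismutase, was lower in celAΔ. It had 115, 83.4 and 71.4 RPKM in celAΔ and 396, 333 and 211 RPKM in the control. The lowest control remained above the highest celAΔ library, and the third control was again the one nearest to celAΔ. The log2 FC was -1.80 (SE 0.37, adjusted p = 0.00521 in edgeR), and -2.02 (SE 0.23) without control replicate 3, and the gene passed in all other settings. The dismutase loci sod1 and sod2 were not analysed here.

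The 2 glutathione S-transferase genes also moved apart. ANIA_05831 rose, with 229, 122 and 124 RPKM in celAΔ against 35.2, 38.0 and 39.2 RPKM in the control. Unlike most of the 15 genes, it had nearly equal levels in all 3 controls (37.4 ± 2.06 RPKM; SD, n = 3), and the spread lay in celAΔ (158.5 ± 60.9 RPKM; SD, n = 3), where the first library was 1.86 times the mean of the others. Its log2 FC was 2.08 (SE 0.36, adjusted p = 0.0029 in edgeR), and 2.12 (SE 0.32) without control replicate 3. Leave-one-out fits gave 1.72 to 2.24. ANIA_03299, a putative glutathione S-transferase, had 25.2, 18.1 and 20.5 RPKM in celAΔ and 77.8, 79.3 and 35.1 RPKM in the control. It fell with a log2 FC of -1.59 (SE 0.39, adjusted p = 0.00851 in edgeR), and of -1.88 (SE 0.24) without control replicate 3, but with the size factors of DESeq2 the value was -0.88 and did not pass.

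The ratio of ANIA_05831 to ANIA_03299 was 9.10, 6.76 and 6.05 in celAΔ and 0.452, 0.479 and 1.12 in the control, a separation that the directions of both genes fix and that was not tested. Their sum was 254, 140.5 and 144.9 RPKM in celAΔ and 113, 117 and 74.3 RPKM in the control. Of 11 loci listed here as antioxidant genes, only ANIA_05918 is in the table, so the glutathione and thioredoxin reductases glr1 and trr1 have no value here.

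**Figure D3:**
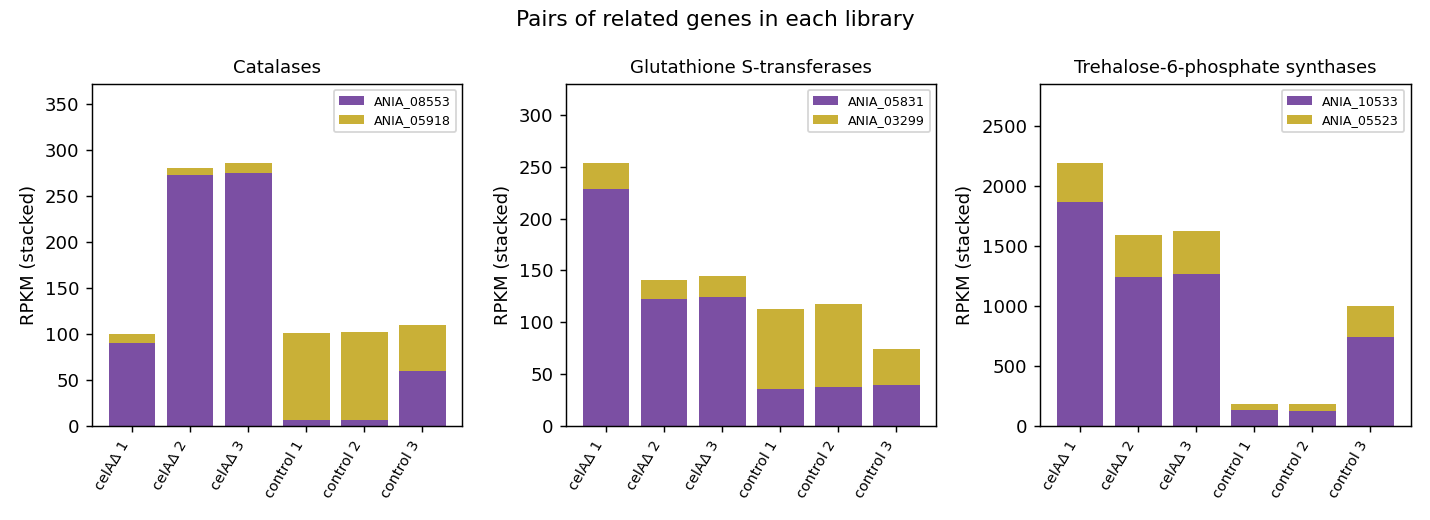
Stacked RPKM of 3 pairs of related genes in each library, with the celAΔ libraries left of the control libraries. In the catalase and glutathione S-transferase panels the purple gene (ANIA_08553, ANIA_05831) takes most of the bar in celAΔ and the yellow gene (ANIA_05918, ANIA_03299) in control replicates 1 and 2, whereas both trehalose 6-phosphate synthase genes are higher in celAΔ.

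ANIA_07640, a putative stress response protein Rds1, is related by its annotation to a Schizosaccharomyces pombe gene that responds to nutrients and temperature. It had 40.9, 51.5 and 55.9 RPKM in celAΔ and 16.8, 19.3 and 33.8 RPKM in the control, the smallest change of the 15 (log2 FC 1.08, SE 0.36, adjusted p = 0.0217 in edgeR). Without control replicate 3 the log2 FC was 1.45 (SE 0.23). The gene did not pass without celAΔ replicate 2 or 3 or control replicate 1 or 2, with values from 0.90 to 1.05. Of 7 loci listed here as stress signalling genes, mpkC, a mitogen-activated protein kinase of the osmotic stress type, is in the table. It rose to 64.6, 89.6 and 71.3 RPKM in celAΔ, against 15, 19.5 and 33.2 RPKM in the control (log2 FC 1.74, SE 0.38, adjusted p = 0.00603 in edgeR), and the log2 FC was 2.13 without control replicate 3. The other kinase sakA and the factors atfA, yap1 and skn7 were not analysed here.

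Control replicate 3 was placed, for each gene, on the way from the mean of control replicates 1 and 2 (0%) to the mean of celAΔ (100%), on the log2(RPKM + 1) scale. For the 12 higher genes the median position was 67.6%, beside 46.5% over the 642 higher genes of the table, and 9 of the 12 lay over 50%, beside 46.7% of the 642. The highest positions were those of the trehalose genes ANIA_05021 (86.2%) and ANIA_05523 (84.3%), followed by the heat shock protein ANIA_00858 (78.2%), the tubulin chaperone ANIA_03022 (74.9%) and ANIA_10533 (72.5%). The exceptions were ANIA_05831 (4.81%), ANIA_10506 (0%) and ANIA_00251 (-10.7%). Levels in control replicate 3 for these 3 genes were those of the other controls, and 2 of them have few reads. Among the 3 lower genes the position was 29.0% for ANIA_05918, 38.4% for ANIA_01131 and 61.7% for ANIA_03299, beside a median of 31.3% over the 733 lower genes. No test was run on these positions.

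**Figure D4:**
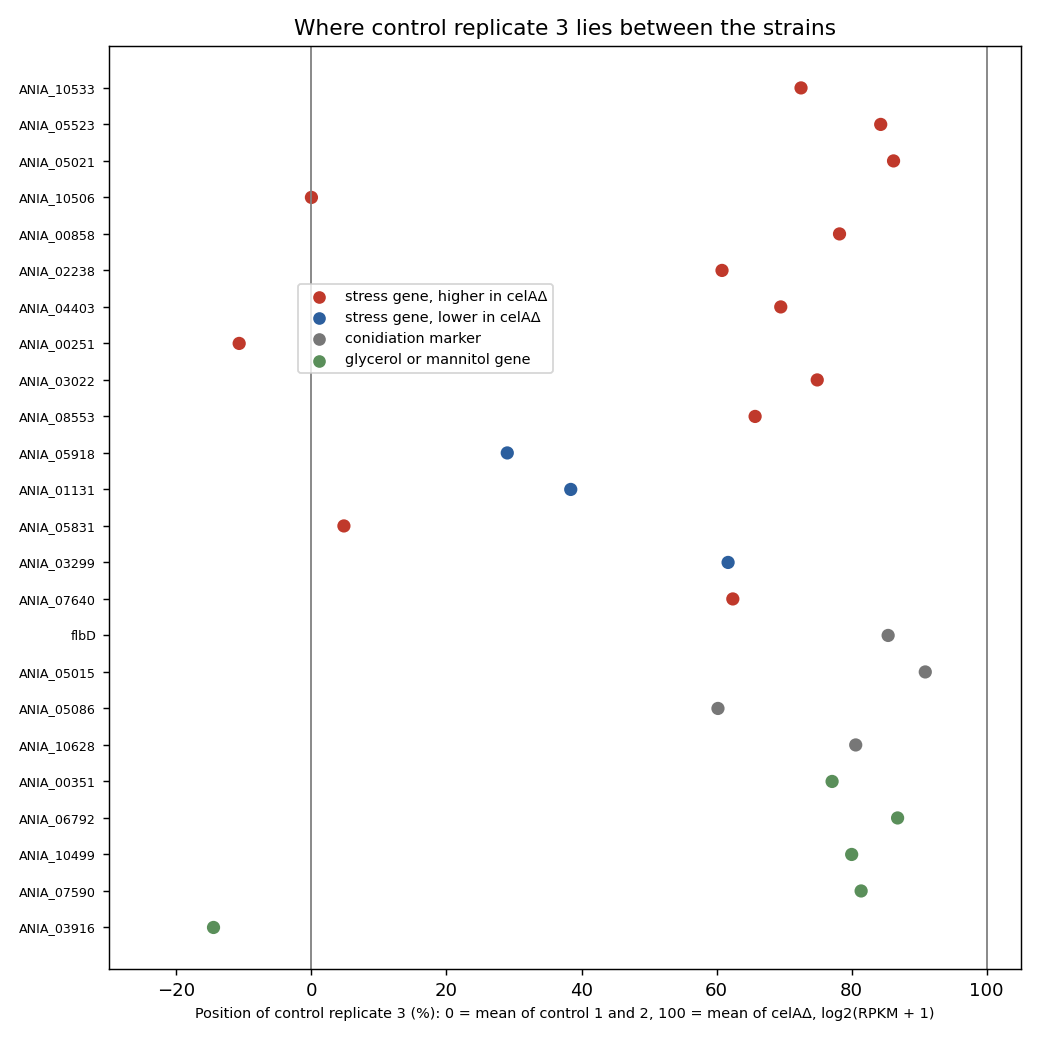
Position of control replicate 3 between the mean of control replicates 1 and 2 (0%) and the mean of celAΔ (100%), on the log2(RPKM + 1) scale, for the 15 genes (red higher, blue lower in celAΔ), 4 conidiation markers (grey) and 5 glycerol or mannitol genes (green). Most red points lie over 60%, with those of the grey markers (60.2 to 90.9%), and ANIA_10506, ANIA_00251 and ANIA_05831 lie near 0%.

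The markers of conidia and conidiophores that are in the table were higher in celAΔ, as were 12 of the 15 genes. Of 11 loci listed here as conidiation markers, 4 are in the table: flbD, a factor of conidiophore development, the conidiation-specific ANIA_05015, the conidium-specific ANIA_05086 and ANIA_10628, similar to a SpoC1 protein. The loci brlA, abaA, wetA, vosA, rodA, dewA and yA are not in the table of selected genes. They have no value here, so the rise holds only for the listed markers. By scanning electron microscopy the study had reported more conidia and conidiophores in celAΔ. The imaged cultures were 4 days old, while the labels give 3 days of growth for the libraries. The study had also named the same 4 markers from these libraries, so their direction is not independent evidence. The summed level of the 4 was 1623, 2517 and 3389 RPKM in celAΔ and 41.0, 40.7 and 1247 RPKM in the control, and ANIA_10628 was at 0 reads in control replicate 2. In edgeR 1 of the 4 passed with all libraries, and 4 of 4 did without control replicate 3, where 96.1% of all deposited genes passed. All 4 also passed with all libraries in limma with either pseudocount and in edgeR with a replicate block, and 2 of 4 in DESeq2. Of all deposited genes, 89.8% and 98% passed in limma with pseudocounts of 1 and 0.1, 91.5% with the block and 69.7% in DESeq2. The positions of control replicate 3 for the 4 markers (60.2 to 90.9%) covered those of 9 of the 12 higher stress genes. Over the 642 higher genes of the table the upper quartile was 68.7%, so such positions are not particular to stress genes or markers. The part of conidial RNA in the higher levels of trehalose, chaperone and catalase genes was not tested. For a mixture of hyphae and conidia, more cells of a type and more RNA per cell cannot be told apart.

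The celAΔ libraries also differed among themselves, in a way that did not follow 1 gene group. Relative to the mean of celAΔ replicates 2 and 3, replicate 1 was at 1.86 for ANIA_05831, 1.49 for ANIA_10533, 1.48 for ANIA_01131 and 1.34 for ANIA_00858. It was at 0.328 for ANIA_08553, 0.298 for ANIA_10506 and 0.769 for ANIA_05021. The summed level of the conidiation markers, most of it from ANIA_05015, was also lowest in that library. By gene the ratio was 0.530 for ANIA_05015, 0.494 for ANIA_05086 and 0.358 for ANIA_10628. The marker flbD went the other way, at 1.18. In ANIA_05523, ANIA_04403 and ANIA_00251 replicate 1 was close to the other celAΔ libraries (ratios 0.933, 1.00 and 1.12).

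In the leave-one-out fits, the number of the 15 genes that passed was 10, 7 and 8 without celAΔ replicate 1, 2 and 3, and 8, 5 and 15 without control replicate 1, 2 and 3. Of all deposited genes, 78.7%, 75.1% and 74.0% passed without celAΔ replicate 1, 2 and 3, and 73.0%, 72.1% and 96.1% without control replicate 1, 2 and 3. The 15 of 15 without control replicate 3 is thus near the share of the whole table. When the unlisted loci of the assembly, 10516 loci in all, were counted in the adjustment, 4 of the 15 and 38.1% of the deposited genes passed, the 4 being ANIA_10506 and ANIA_05831 as higher and ANIA_05918 and ANIA_01131 as lower. These 4 did not lose their call in any of the 13 other settings. The size factors of DESeq2 come from the deposited genes alone, all selected as changed, and shift their log2 FC by a median of 0.68. With these size factors, 12 of the 15 passed as higher and 2 as lower. Over all deposited genes 69.7% passed, with 613 higher and 346 lower, against 565 higher and 722 lower with the mapped totals. The direction was kept for all 15 genes in all 13 settings.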

How the data were processed

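RNA-Seq libraries of 3 celAΔ and 3 control replicates were analysed. The authors trimmed the reads in CLC Genomics Workbench and mapped them to the FGSC A4 transcriptome. The deposited counts are unique gene reads without normalization. The deposited RPKM values were made by the authors from the reads of a gene, its size and the mapped reads of the library. A p-value column and mean columns of the authors' own comparison were not used, and 0 further columns of sample values were left aside. Only genes the authors had selected are in the table. Adjusted p-values therefore restate that selection in part, and enrichment was not computed.

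Mapped totals were the median of reads over size and RPKM in genes with more than 20 reads. They served as library sizes in edgeR 4.0.16 (R 4.3.3) with normalization factors of 1 and a prior count of 0.125. The two-sided quasi-likelihood test was adjusted by Benjamini-Hochberg over 1375 genes, with thresholds of 0.05 for the adjusted p and 1 for the log2 FC in absolute value. Standard errors (SE) were derived from the log2 FC and the F statistic. The test was checked on simulated data. The labels name no batches.

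Alternatives were limma 3.58.1 on log2(RPKM + 1) and log2(RPKM + 0.1), TMM factors, DESeq2 1.42.0, a mean RPKM of at least 1, adjustment over all 10516 loci, a replicate block and each library left out, 13 settings in all. All 15 genes taken by the annotation words are named, with celA, argB and the deposited genes of the pathway, conidiation and polyol lists. Members and lists were chosen with earlier results of these data known. Symbols came from RefSeq (ASM1142v1), and promoters and proteins were not analysed here. Figures were made with Python 3.11.15 and matplotlib 3.10.9.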

Additional observations from a re-analysis of the deposited data

How the results depend on the processing

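Adjusted over all 10516 loci of the assembly, 4 of the 15 stress genes passed (2 higher, 2 lower), and 524 of the deposited genes (172 higher, 352 lower). With DESeq2's size factors 346 deposited genes passed as lower. With 1 library left out at a time, 5 to 15 of the stress genes passed (2 to 12 higher, 3 lower throughout), and 992 to 1321 deposited genes (372 to 624 higher, 610 to 697 lower). The labels do not say whether same-numbered replicates of the strains were paired. The correlations of same-numbered deviations from the strain means were 0.192, -0.189 and 0.161 over 1375 genes. Of the 6 libraries, 2 correlated best with their own number. With so few libraries these values cannot decide whether the numbers pair cultures. With a replicate block, 15 stress genes and 1258 deposited genes passed. No stress gene changed direction in any of the 13 settings. Depth limits ANIA_10506 and ANIA_00251, which had at most 33 and 20 reads per library.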

Other observations

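Genes of glycerol and mannitol metabolism, solutes that fungi accumulate along with trehalose under osmotic stress, were found by annotation in 5 rows of the table. Summed, they had 1807, 2859 and 2804 RPKM in celAΔ and 232, 201 and 879 RPKM in the control. The glycerol-3-phosphate dehydrogenase ANIA_06792 had 500, 911 and 699 reads in celAΔ and 6, 1 and 299 in the control. The NADP(+) coupled glycerol dehydrogenase ANIA_10499 had 756, 3040 and 2278 reads in celAΔ and 4, 0 and 435 in the control, and ANIA_07590, similar to a mannitol dehydrogenase, had 726, 829 and 872 RPKM in celAΔ and 69.4, 60.1 and 505 RPKM in the control. With all libraries these 3 genes did not pass in edgeR (Benjamini-Hochberg adjusted p = 0.151, 0.111 and 0.054). All 3 did in limma with either pseudocount and in edgeR with a replicate block, and ANIA_07590 did in DESeq2. Of all deposited genes, 89.8% and 98% passed in limma with pseudocounts of 1 and 0.1, 91.5% with the block and 69.7% in DESeq2. ANIA_00351, similar to a glycerol 3-phosphate dehydrogenase, passed with a log2 FC of 1.28 (edgeR, Benjamini-Hochberg adjusted p = 0.0346). Without control replicate 3 all 5 passed, as did 96.1% of all deposited genes.

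The glycerol kinase ANIA_03916, which phosphorylates glycerol for its use, stood apart from the other polyol genes. It had 703, 1137 and 1080 RPKM in celAΔ and 131, 108 and 87.7 RPKM in the control, with the third control the lowest (log2 FC 3.16, SE 0.40, adjusted p = 0.00139 in edgeR; 3.03 without control replicate 3). Its position of control replicate 3 was -14.5%, against 77.1 to 86.8% for the 4 others. The position of the glutathione S-transferase ANIA_05831 was 4.81%, with the third control slightly above the other controls.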
